A study of Mus musculus with 6 samples.

Results

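Fibroblast growth factor (FGF) signalling genes were examined in a ventral part of the mouse embryonic forebrain, the medial ganglionic eminence (MGE), from which many cortical interneurons arise. Embryos without Sp9, a transcription factor that binds DNA through zinc fingers, were compared with wild type embryos. The genes were taken by symbol: every numbered Fgf gene, the receptor genes Fgfr1 to Fgfr4 and Fgfrl1, the Sprouty genes Spry1 to Spry4, the Spred genes Spred1 to Spred3, and Dusp6, Etv4 and Etv5. This gave 37 genes of the 34745 in the deposited table. RNA-seq was done on 3 libraries labelled wild type and 3 labelled Sp9 null mutant, all from the MGE at embryonic day 12.5. Both groups share a mixed background of CD1, 129S6 and C57BL/6J, and the wild type embryos were littermates of the mutants. The labels name no Cre driver or transgene, and do not say how the null allele was made. The labels do not say whether a library came from 1 embryo or several, nor whether libraries of a genotype came from separate litters, and p-values rest on the spread among these libraries alone. In RNA of whole tissue, fewer cells of a type and less RNA per cell cannot be told apart.

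Secreted FGFs bind receptor tyrosine kinases together with heparan sulphate, and the receptors signal through the docking protein Frs2, RAS and the ERK kinases. ERK activity induces the ETS factors Etv4 and Etv5, the ERK phosphatase Dusp6 and the Sprouty proteins, and the last of these feed back on the pathway. In the embryonic forebrain, FGFs from the rostral midline pattern the telencephalon and help set up its ventral part. The Fgf11 to Fgf14 genes belong to the family by sequence only: their products, the FGF homologous factors, are not secreted and bind voltage-gated sodium channels inside neurons.

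Libraries held between 6826447 and 10979280 counts. Sp9 had 1939, 2700 and 1870 counts in wild type libraries 1, 2 and 3 and 89, 116 and 118 in the null libraries, and fell by 4.13 on the log2 scale (edgeR adjusted p = 2.54e-05), which matches the labels. The MGE markers Nkx2-1, Lhx6 and Dlx1 were abundant in all 6 libraries, and the 7 MGE identity genes together took 3237 to 3462 CPM (counts per 1000000 counts of the library) in the wild type and 3824 to 3989 CPM in the null libraries. The 7 did not share a direction, with 3 log2 fold changes above and 4 below 0 and a median of -0.09. Without the block 1 of them was called, Dlx1, which was higher in the null libraries (log2 0.69, edgeR adjusted p = 0.034). With the replicate number as a block Dlx2 was also called higher (0.39, edgeR adjusted p = 3.91e-05) and Lhx6 lower (-0.46, adjusted p = 6.01e-06), Lhx6 going from a mean of 521.4 CPM in wild type to 374.7 CPM in null. The number 2 libraries of both genotypes stood apart on the first principal component, which held 55.2% of the variance. They also held less of the cortical gene Tbr1 (7 counts in wild type 2 and 1 in null 2, against 141 to 395 elsewhere) and of the midline and septal genes Zic1, Zic2, Zic4 and Zic5, which summed to 104.4 and 84.4 CPM in the number 2 libraries and 250.6 to 405.4 CPM in the others. Where leaving those libraries out ends a call or turns the sign of an FGF or pathway gene described here, that value is given too. For the marker genes it is not given. The mitochondrial share of counts lay between 2.20% and 2.28% for wild type, against 2.32%, 3.43% and 3.41% for null libraries 1, 2 and 3; its part in the results was not tested.

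Of the 37 genes, 23 passed the filter on low counts and were tested, 4 had no count in any library, and 8, those 4 included, never exceeded 3 counts, the detection floor used here (0.273 to 0.440 CPM, covering counting error only). The wild type and null libraries were compared with edgeR's quasi-likelihood test, fitted over 14929 genes, and a gene was called at a Benjamini-Hochberg adjusted p under 0.05. Without a term for the replicate number, 0 of the 23 were called, where 0.147% of all tested genes were. DESeq2 without a block also called 0, where it called 0.563% of all tested genes. At an unadjusted p under 0.05, edgeR found 3 of the 23, namely Fgf13, Fgf11 and Spred2, where 5.91% of all tested genes reached it, and DESeq2 found 2. The labels state no pairing, and the replicate block was taken from correlations in these same counts. Those correlations set the number 2 libraries apart but could not decide how libraries numbered 1 and 3 pair. With the replicate number as a block, 1 of the 23 was called, Fgf13, which was higher in the null libraries. That is 4.35% of the 23, where 2.22% of all tested genes were called higher and 1.78% lower. DESeq2 with the block also called 1, Fgf13, and 1.09% of all tested genes. At an unadjusted p under 0.05 the blocked edgeR fit found 4, the 3 above and Spred3, where 17.2% of all tested genes reached it. The median log2 fold change of the 23, Sp9 null over wild type, was 0.04, and their median absolute log2 fold change was 0.125, beside 0.120 over all tested genes.

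Upstream sequences are shown for the genes with an unadjusted p under 0.05 in either fit, except Spred2. Sp family proteins bind the GC box, here searched as GGGCGG on both strands. RefSeq starts on GRCm38.p6 matched 27 of the 37 genes. Of their 35 starts, 65.7% held a GC box in the 250 bases before the start, as did 32.7% of all 32851 starts in the table. The median GC content of these windows was 62.4% and 52.4%. The ETS motif CCGGAAGT occurred before 1 of the 35 starts, that of Fgfrl1, and before 2.88% of all starts. A motif match is a description of these letters and does not show binding. Fgf13 has 4 starts in the table, with 0, 3, 0 and 4 GC boxes from the most upstream to the most downstream. Its middle starts and the Spred2 start (1 GC box) have windows that overlap an exon of their own gene, and are not printed. The 4 windows printed here overlap no annotated exon and are read 5′ to 3′ on the gene's strand, the minus strand in each case, with GC boxes in capitals.
Fgf13, most downstream start, chrX:59134437-59134686: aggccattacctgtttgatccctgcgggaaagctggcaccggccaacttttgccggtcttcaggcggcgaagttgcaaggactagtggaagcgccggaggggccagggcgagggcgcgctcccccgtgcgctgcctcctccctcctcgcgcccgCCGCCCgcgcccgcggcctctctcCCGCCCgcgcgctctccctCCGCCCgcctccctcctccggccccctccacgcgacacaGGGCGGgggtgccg
Fgf13, most upstream start, chrX:59585573-59585822: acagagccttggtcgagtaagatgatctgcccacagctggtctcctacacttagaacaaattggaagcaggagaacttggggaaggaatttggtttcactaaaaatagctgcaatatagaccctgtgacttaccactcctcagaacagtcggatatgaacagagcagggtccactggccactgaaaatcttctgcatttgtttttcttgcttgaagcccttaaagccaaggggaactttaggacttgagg
Fgf11, chr11:69802281-69802530: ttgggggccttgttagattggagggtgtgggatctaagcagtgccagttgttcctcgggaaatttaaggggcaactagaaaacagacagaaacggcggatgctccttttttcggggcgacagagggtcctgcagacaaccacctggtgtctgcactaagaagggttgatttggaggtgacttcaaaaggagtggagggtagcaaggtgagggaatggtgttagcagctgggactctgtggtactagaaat
Spred3, chr7:29168648-29168897: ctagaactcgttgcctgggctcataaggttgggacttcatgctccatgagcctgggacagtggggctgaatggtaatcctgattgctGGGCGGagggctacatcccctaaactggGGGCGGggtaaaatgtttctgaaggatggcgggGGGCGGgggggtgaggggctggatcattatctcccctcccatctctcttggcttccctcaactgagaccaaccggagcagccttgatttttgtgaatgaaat
The first Fgf13 window and the Spred3 window hold 4 and 3 GC boxes and lie inside the spans of the deposited genes. The other pair holds none and lies outside the deposited genes, which end at 59568071 on chromosome X and 69801857 on chromosome 11. The first bases after the starts of this other pair were not found in an annotated transcript of the gene. Those after the most downstream Fgf13 start and the Spred3 start were found. Counts are per gene, so they do not separate the Fgf13 starts.

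Among the 4 FGF homologous factor genes, the most abundant, Fgf13, rose in the null libraries in the blocked fit, and the next, Fgf11, was lower without passing (levels between genes are compared in the deposited FPKM, which is scaled for gene length and depth). Fgf13 (chromosome X, 59062145 to 59568071), which codes for a sodium channel and microtubule binding protein of migrating neurons, was at 38.6, 34.5 and 36.4 CPM in wild type libraries 1, 2 and 3, against 49.1, 46.0 and 55.4 CPM in the null libraries. Every null library lay above every wild type library. Without the block, the fitted log2 fold change of null over wild type came to 0.48 (SE 0.10), which did not pass (edgeR adjusted p = 0.293, unadjusted p = 0.00155). With the replicate block Fgf13 rose by 0.48 (SE 0.09, edgeR adjusted p = 0.000573), and DESeq2 with the block gave 0.49 (adjusted p = 0.0394). The blocked call was lost without the number 2 pair (0.50, edgeR adjusted p = 0.0642) and without the number 3 pair (0.40, edgeR adjusted p = 0.0977), and kept without the number 1 pair (adjusted p = 0.000103). Within pairs 1, 2 and 3 the log2 ratios of CPM were 0.35, 0.41 and 0.61. The Fgf13 span overlaps 2 annotated genes on its own strand and 2 on the opposite strand. Reads of those genes may not be fully separated from it.

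Fgf13 is X-linked, and the libraries differed in transcripts that mark sex. For Xist, which female cells transcribe from their inactive X, wild type libraries 1, 2 and 3 gave 2680, 2400 and 651 CPM and the null libraries 1410, 1010 and 2.01 CPM. The Y-linked Ddx3y was at 1.78, 22.2 and 52.2 CPM in wild type, against 37.5, 51.6 and 55.7 CPM in the null libraries. Within each replicate number the null library held less Xist and more Ddx3y than the wild type library. The block does not remove a difference between libraries of the same number. Null library 3 stood out by its near lack of Xist, and wild type library 1 by its low Ddx3y. Wild type libraries 2 and 3 and null libraries 1 and 2 held both transcripts far above the floor. The 515 tested X-linked genes had a median log2 fold change of 0.07, against -0.007 for the other 14414. With the block 7.96% of the X-linked genes were called, 26 of the 41 of them higher. Of the others 3.86% were called, 306 of the 556 of them higher. The part of sex in the Fgf13 result was not tested.

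Fgf11 (chromosome 11, 69796068 to 69801857), another homologous factor gene, gave 31.4, 27.1 and 28.6 CPM in wild type libraries 1, 2 and 3, against 24.6, 21.3 and 23.8 CPM in the null libraries. Every null library lay below every wild type library, and the 3 pairs gave log2 ratios of -0.35, -0.35 and -0.27. Its log2 fold change was -0.30 (SE 0.11), which did not pass (edgeR adjusted p = 0.777, and 0.120 with the block). Its 95% interval, taken for this gene alone, ran from -0.55 to -0.05.

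The share of the summed FPKM of the 4 genes held by Fgf13 was 43.9% ± 2.83 in wild type and 55.9% ± 6.92 in null libraries (SD, n = 3 each), and that of Fgf11 was 33.9% ± 1.81 and 25.2% ± 3.16. The sum itself ran from 14.1 to 17.7 FPKM in the wild type and from 13.9 to 19.8 FPKM in the null libraries. Fgf12, with 14 to 48 counts a library, had a log2 fold change of 0.004 (SE 0.48), and its 2 groups overlapped. Across the 23 tested genes, groups did not overlap for 3, namely Fgf13, Fgf11 and Spred2, where 13.0% of all tested genes did not overlap, made up of 4.95% higher and 8.06% lower in the null libraries.

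**Figure D1:**
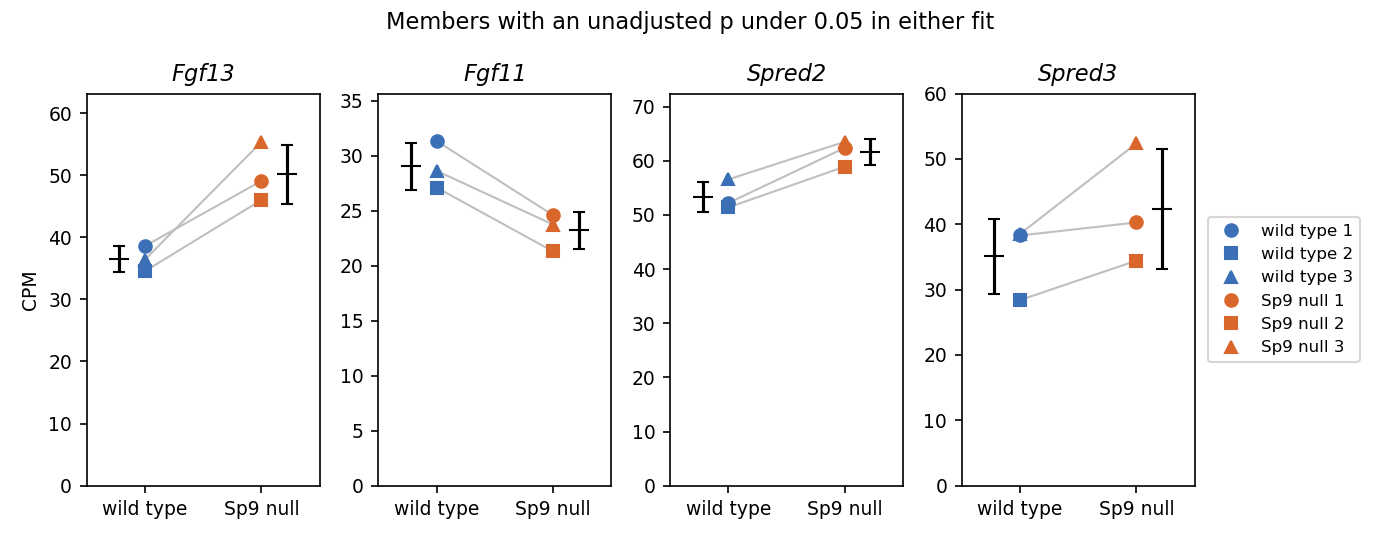
CPM of Fgf13, Fgf11, Spred2 and Spred3 (y axes from 0) in the 3 wild type and 3 Sp9 null libraries. Points are libraries, with the replicate number as the marker shape, grey lines join libraries with the same number, and black bars show the group mean ± SD. Fgf13 and Spred2 are higher and Fgf11 is lower in all null libraries, while Spred3 overlaps.

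Fgf14, whose product is a sodium channel partner at the axon initial segment, separated the libraries by replicate number. It was at 20.9, 6.05 and 19.4 CPM in wild type and 18.6, 4.19 and 20.7 CPM in null libraries 1, 2 and 3. Both number 2 libraries were the low ones, and the mean of the other 4 libraries was 3.88 times theirs. The log2 fold change was -0.08 (SE 0.71) without the block and -0.12 (SE 0.15) with it. Fgf14 overlaps 2 annotated genes on its own strand and 5 on the opposite strand, so their reads may not be fully separated.

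Fgf9 and Spry3 split the libraries the same way. Fgf9, coding for a secreted ligand, had 17, 3 and 16 counts in wild type and 6, 3 and 23 in null libraries 1, 2 and 3. Spry3 is a Sprouty gene whose deposited position is on the scaffold GL456233.1, with no chromosome named. It had 53, 14 and 38 counts in wild type and 39, 21 and 66 in the null libraries. The libraries numbered 1 and 3 were 6.13 and 3.46 times as high in CPM as the number 2 libraries. Of 21 tested genes with 20 or more counts in some library, these 3 (14.3%) differed by more than 2-fold between the number 2 and the other libraries, where 5.44% of all such genes did. The Tbr1 and Zic levels given above were low in the same libraries, and their part in the levels of Fgf14, Fgf9 and Spry3 was not tested.

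**Figure D2:**
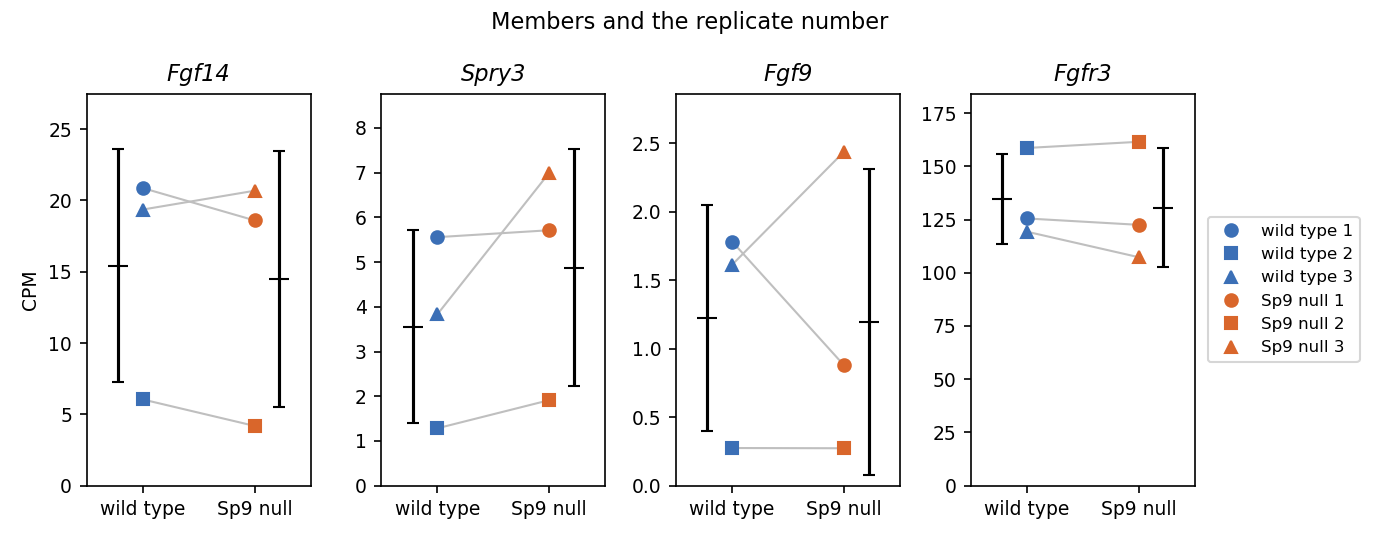
CPM of Fgf14, Spry3, Fgf9 and Fgfr3 (y axes from 0) by genotype, with markers, lines and bars as in the plot of Fgf13 and Fgf11. The squares, the number 2 libraries, are lowest for Fgf14, Spry3 and Fgf9 and highest for Fgfr3 in both genotypes.

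The secreted ligands were few and low. Of 18 genes, Fgf6, Fgf8, Fgf16 and Fgf21 had no counts, which includes Fgf8, the main ligand of the rostral patterning centre. For Fgf8 that allows up to 3 counts, or 0.273 to 0.440 CPM depending on the library. The filter left 5 to test. Fgf15, the mouse counterpart of human FGF19 and a ligand of the ventral forebrain and diencephalon, made up 59.6% to 81.9% of the summed ligand FPKM of a library. It was at 5.68, 5.22 and 7.30 FPKM in wild type and 5.75, 3.32 and 12.4 FPKM in null libraries 1, 2 and 3. The null libraries held both the lowest and the highest value, and the groups overlapped. The log2 fold change of Fgf15 was 0.26 (SE 0.46), with a 95% interval from -0.84 to 1.36. It was -0.42 without null library 3, so that library sets its sign.

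Fgf20, a ligand of the Fgf9 subfamily, was next, with 16, 10 and 18 counts in wild type and 8, 10 and 4 in null libraries 1, 2 and 3. Scaled for depth the groups overlapped, since null library 1 (1.17 CPM) lay above wild type library 2 (0.916 CPM). The difference, -0.81 on the log2 scale (SE 0.48), did not pass (edgeR adjusted p = 0.897). Fgf22, the next by FPKM, had 2, 1 and 5 counts in wild type and 1, 0 and 4 in the null libraries and was not tested. Fgf7 and Fgf2, ligands made by many tissues, had 11 to 40 and 11 to 20 counts a library and fitted log2 differences of -0.07 (SE 0.44) and 0.21 (SE 0.31). Fgf2 overlaps genes on the opposite strand, Nudt6 among them, so its reads may not be fully separated, since strand is not stated. Several other FGF genes, Fgf15 and Fgfr3 among them, also overlap genes on the opposite strand.

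Fgf17, a ligand of the Fgf8 subfamily made at the rostral midline, was too low for the filter, and is singled out here after its values were seen. It had 8, 3 and 13 counts in wild type libraries 1, 2 and 3 and 0, 0 and 1 in the null libraries. No null library reached the lowest wild type library. The depth-scaled ratio of wild type to null was 21.5 (95% exact counting interval 3.51 to 885), which covers counting error only. Without the filter the edgeR test gave an adjusted p of 0.352 (unadjusted p = 0.00251), so the difference did not pass. Fgf3, also a midline ligand, had 2, 3 and 15 counts in wild type and 5, 0 and 2 in the null libraries, and the groups overlapped. The other members that the filter left out are Fgf1, Fgf4, Fgf5, Fgf10, Fgf18, Fgf22, Fgf23 and Fgfr4 together with the 4 without counts. Of the Zic genes of the midline and septum, 0 of 4 were called without or with the block. Of all tested genes 0.147% were called without it, and 2.22% higher and 1.78% lower with it. The log2 fold changes of Zic1, Zic2, Zic4 and Zic5 were 0.35, 0.14, 0.46 and 0.36 without the block. Their SEs ran from 0.42 to 0.76, and the Zic sums overlapped between the genotypes. The part of midline tissue in the Fgf17 and Fgf3 counts was not tested.

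Of the 5 roles, the receptors had the smallest median absolute log2 fold change, 0.021, where the others ran from 0.141 to 0.298. Fgfr2 and Fgfr3, receptors of progenitor cells in the ventricular zone, had means over the 6 libraries of 9.70 and 9.60 FPKM. Fgfrl1, a receptor-like protein that lacks the kinase domain, and Fgfr1 followed at 7.27 and 7.12 FPKM. The members of each of these pairs did not differ beyond the spread of their libraries. Fgfr4 was at 0.204 ± 0.0416 FPKM in wild type and 0.311 ± 0.0580 FPKM in null libraries (SD, n = 3), from 7 to 12 counts a library. The counted Fgfr2 gene spans chromosome 7 from 130162451 to 133123350 and overlaps 36 other annotated genes on its own strand and 33 on the opposite strand, so reads of those genes may not be fully separated from it.

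Fgfr3 was at 125.5, 158.6 and 119.3 CPM in wild type and 122.5, 161.5 and 107.3 CPM in null libraries 1, 2 and 3. Fgfr2 was at 124, 140 and 115 CPM in wild type, against 124, 169 and 103 CPM in the null libraries. Both were highest in the number 2 libraries, where Fgf14 was lowest. Fgfrl1 had the same order, at 34.3, 43.6 and 33.5 CPM in wild type, against 34.3, 43.6 and 29.9 CPM in the null libraries.

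Log2 fold changes were -0.02 for Fgfr1, 0.09 for Fgfr2, -0.02 for Fgfr3 and -0.02 for Fgfrl1. The 95% intervals were -0.22 to 0.19, -0.35 to 0.53, -0.44 to 0.40 and -0.42 to 0.37. With the replicate block they narrowed to -0.15 to 0.11 for Fgfr1, -0.08 to 0.22 for Fgfr2, -0.16 to 0.10 for Fgfr3 and -0.22 to 0.16 for Fgfrl1. Differences inside these intervals could not be told from 0 here. Without the number 2 libraries the value for Fgfr2 turned to -0.07.

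**Figure D3:**
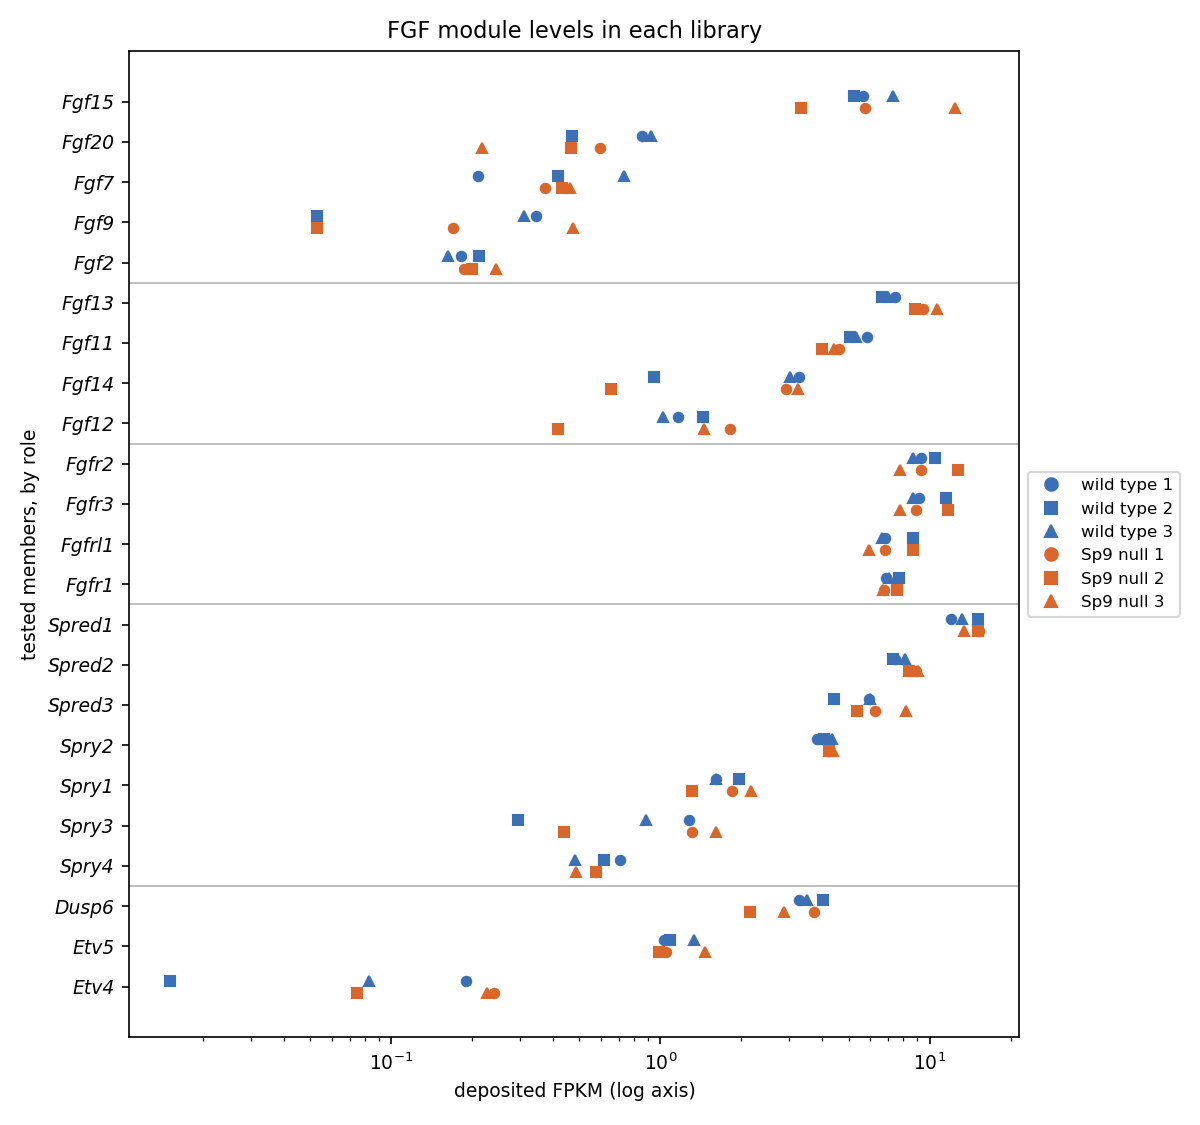
Deposited FPKM (log x axis) of the 23 tested genes in each library, grouped by role (from the top: secreted ligands, homologous factors, receptors, Sprouty and Spred inhibitors, and Dusp6, Etv5 and Etv4). Blue marks wild type and orange Sp9 null. The receptors lie close together, while among the secreted ligands Fgf15 stands above the rest.

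Among the inhibitors of RAS-ERK signalling, the 3 Spred genes were higher on average in the null libraries, but none was called. Of the 7 inhibitor genes 6 had a log2 fold change above 0, with a median of 0.14, beside 48.9% above 0 and a median of -0.005 for all tested genes. The Spred proteins bind neurofibromin and hold back RAS. Spred1, the highest of the 23 genes at a mean of 14.04 FPKM, was at 84.6, 107 and 93.1 CPM in wild type, against 108, 107 and 95.2 CPM in the null libraries, and the groups overlapped. Its log2 fold change was 0.14 (SE 0.11). Spred2 was at 52.2, 51.4 and 56.6 CPM in wild type, against 62.4, 58.9 and 63.5 CPM in the null libraries, so its groups did not overlap. The log2 fold change of Spred2 was 0.23 (SE 0.08, edgeR adjusted p = 0.786, and 0.0966 with the block). Spred3 was at 38.3, 28.4 and 38.5 CPM in wild type, against 40.3, 34.4 and 52.4 CPM in the null libraries. Its lowest null library lay below 2 of the wild type libraries, though each null library exceeded the wild type library of its number. The log2 fold change of Spred3 was 0.30 (SE 0.18, edgeR adjusted p = 0.897), and with the block 0.29 (SE 0.10, adjusted p = 0.0739). It was called with the block only without the number 1 pair (0.40, edgeR adjusted p = 0.0121).

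Of the Sprouty genes, which code for inhibitors induced by ERK, Spry2 was the highest, at 3.82, 4.04 and 4.35 FPKM in wild type and 4.22, 4.24 and 4.37 FPKM in the null libraries. Its log2 fold change was 0.09 (SE 0.15, 95% interval -0.26 to 0.44). For Spry1 and Spry4 the groups overlapped too, with log2 fold changes of 0.06 (SE 0.23) for the one and -0.13 (SE 0.27) for the other. Spry3 had 0.47 (SE 0.62), and 0.50 (SE 0.26, edgeR adjusted p = 0.330) with the block. Its chromosome is not named in the deposited position, and the part of sex in its level was not tested.

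The ERK-induced genes Dusp6, Etv4 and Etv5 were not called, and their log2 fold changes differed in sign. Dusp6, the cytoplasmic ERK phosphatase, had 87, 123 and 97 counts in wild type and 71, 66 and 76 in the null libraries, or 9.12, 11.3 and 9.78 CPM against 10.4, 6.01 and 8.06 CPM. The groups overlapped since null library 1 lay above wild type libraries 1 and 3. The log2 fold change of Dusp6 was -0.30 (SE 0.22, edgeR adjusted p = 0.904). Without the number 2 libraries it was -0.03, and the log2 ratios of CPM within pairs 1, 2 and 3 were 0.19, -0.91 and -0.28. Etv5 was at 7.34, 7.70 and 9.48 CPM in wild type, against 7.47, 7.01 and 10.4 CPM in the null libraries, with a log2 fold change of 0.04 (SE 0.21). Etv4 had 11, 1 and 5 counts in wild type and 10, 5 and 13 in the null libraries. Its log2 fold change of 0.91 had an SE of 0.77 and did not pass (edgeR adjusted p = 0.925), which leaves a wide interval at this depth, from -0.87 to 2.68.

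**Figure D4:**
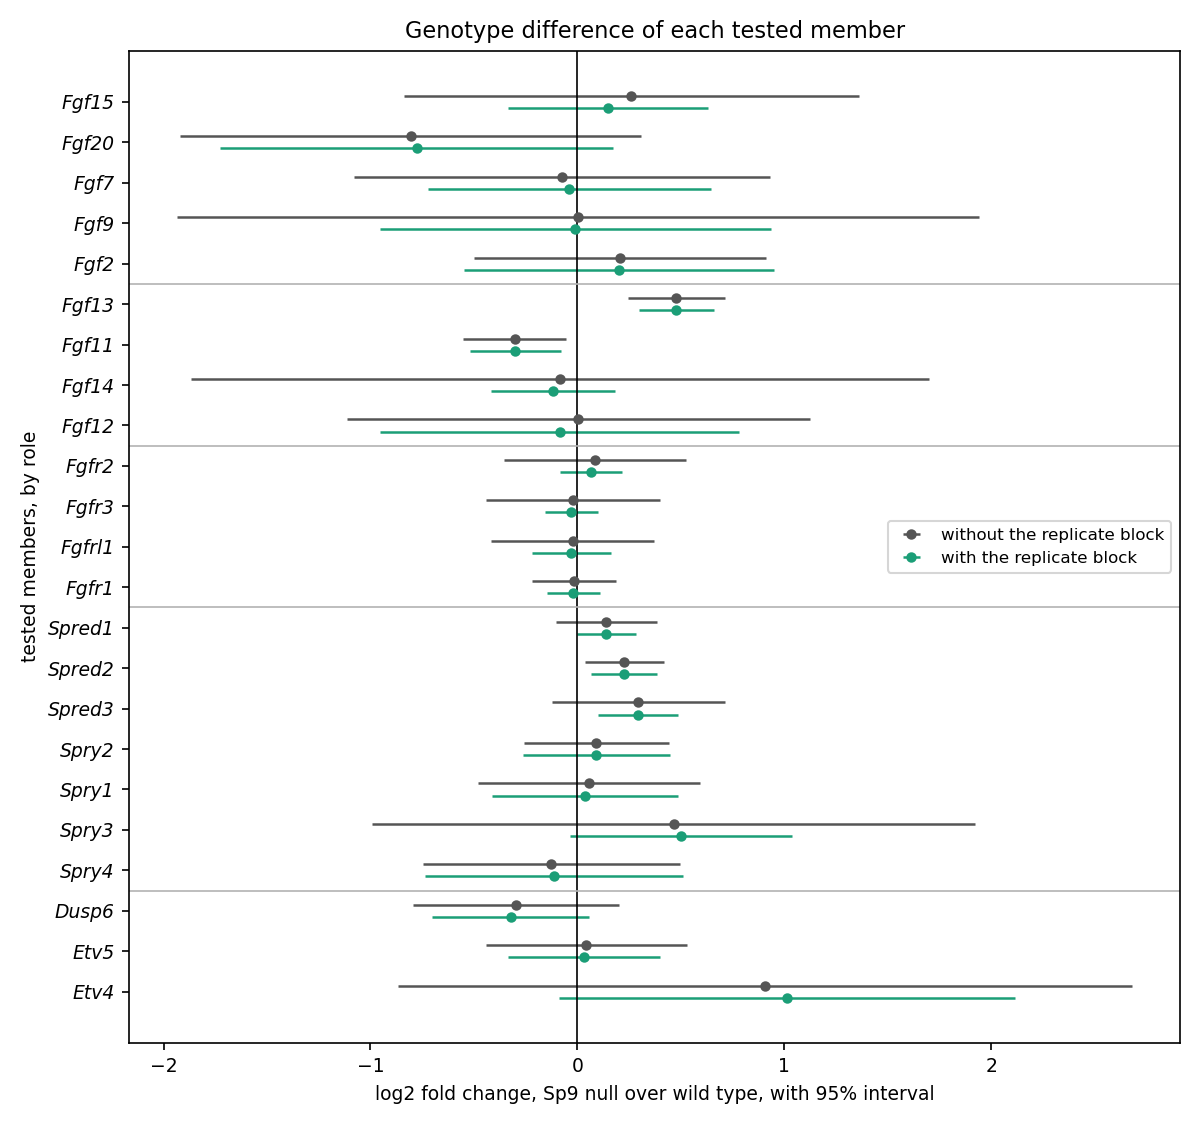
Log2 fold change of Sp9 null over wild type (x axis) for the 23 tested genes, grouped by role, with 95% intervals taken for each gene alone. Grey is the fit without and green the fit with the replicate block. Fgf13 lies to the right of 0 and Fgf11 to its left in both fits, and the block narrows the interval of Fgf14 most visibly.

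Other genes of the pathway were followed through 4 lists with 46 genes, of which 41 were tested: co-receptors and binding proteins, heparan sulphate enzymes and proteoglycans, the RAS-MAPK cascade, and further ERK-responsive genes. Without the block 0 of the 41 were called by edgeR and 0 by DESeq2, and 3 had an unadjusted p under 0.05 by each tool. With the block 3 were called higher in the null libraries and 0 lower, which is 7.32% of the 41, where 2.22% of all tested genes were called higher and 1.78% lower. At an unadjusted p under 0.05 the blocked fit found 14 of the 41, where 17.2% of all tested genes reached it. The median log2 fold change of the 41 was 0.03, with 21 above and 20 below 0. Groups did not overlap for 5 of the 41, where 13.0% of all tested genes did not overlap, 4.95% higher and 8.06% lower. Of the 5, Fgfbp3, Gpc4 and Sos2 were higher in the null libraries, and Ext2 and Map2k2 were lower.

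Gpc4, a glypican that carries heparan sulphate chains at the cell surface and is X-linked like Fgf13, was at 53.5, 49.0 and 44.3 CPM in wild type, against 66.2, 70.2 and 57.5 CPM in the null libraries. Its groups did not overlap, and with the block it rose by 0.43 (SE 0.08, edgeR adjusted p = 0.000734). The part of sex in the Gpc4 result was not tested either. Sos2, an exchange factor that loads RAS with GTP, was at 50.7, 53.1 and 55.3 CPM in wild type, against 65.2, 66.8 and 63.2 CPM in the null libraries. Its groups did not overlap either, and with the block it rose by 0.32 (SE 0.08, edgeR adjusted p = 0.0134).

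Dusp4, the nuclear ERK phosphatase, was at 76.2, 22.1 and 78.0 CPM in wild type and 93.2, 32.6 and 112.9 CPM in null libraries 1, 2 and 3. Its number 2 libraries were the low ones, as for Fgf14, and each null library lay above the wild type library of its number. With the block Dusp4 rose by 0.47 (SE 0.08, edgeR adjusted p = 0.000146), whereas Dusp6 did not pass. The call of Gpc4 was lost without the number 2 pair (edgeR adjusted p = 0.151) and that of Dusp4 without the number 3 pair (0.0545). Sos2 was no longer called without the number 2 pair (0.291) or the number 3 pair (0.0728), nor in the blocked DESeq2 fit (0.273). The co-receptor genes Kl and Klb and the binding protein gene Fgfbp1 were too low to be tested, at 0 to 10 counts a library.

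Markers of other cells were also summed. Cortical excitatory genes took 8.16 and 8.93 CPM in the number 2 libraries and 21.9 to 54.0 CPM in the others. Hypothalamic genes took 17.1 to 20.6 CPM in wild type and 19.4 to 26.1 CPM in the null libraries. Most of this sum was Tcf7l2, at 13.5 to 19.6 CPM. Otp had 0 and 1 counts in wild type 2 and null 2, against 19 to 34 in the others. Sim1 had 4 and 1 counts there, against 8 to 19. Tcf7l2, Pomc (4 to 9 counts) and Rax (0 or 1) did not split by number in that way. The 6 microglial genes together took 50.2 to 53.6 CPM in wild type and 23.0 to 33.1 CPM in the null libraries, and all 6 fell with the block. The summed meningeal and endothelial levels overlapped between the genotypes, the former at 45.0 to 51.8 CPM in wild type and 40.9 to 47.2 CPM in null, the latter at 152 to 178 CPM and 144 to 169.5 CPM. Erythroid genes took 732.8 to 1132 CPM in wild type and 770.7 to 1152 CPM in null. With the block, single genes of these lists were also called by edgeR: Pdgfra of the meningeal list fell by 0.45 on the log2 scale (adjusted p = 0.0195), and the cortical Tbr1 (0.81, adjusted p = 0.0238) and the erythroid Hba-x (0.41, adjusted p = 1.99e-05) and Hbb-bh1 (0.33, adjusted p = 0.0426) rose. Tbr1 did not rise in every pair, with log2 ratios of CPM of 0.66, -2.82 and 1.05 within pairs 1, 2 and 3. No list had a member at 0 in all 6 libraries. The part of these cells in the levels of the FGF genes was not tested.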

How the data were processed

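RNA was sequenced from 6 MGE samples. The deposited table holds, per the file headers, a read count and an FPKM value for each gene and library. TopHat, Cufflinks 2.1.1 and the build GRCm38.p4 are listed, without their roles, in the submitters' processing notes. The program that counted reads, its strand setting and its annotation are not given in the sources used here. Each FPKM value that the authors deposited equalled the count over a fixed gene length and the library total for 21180 of 21180 genes counted in 2 or more libraries, within a relative tolerance of 0.001. The number of unused sample columns was 0.

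Counts were tested with edgeR 4.0.16 (TMM scaling, default expression filter, robust quasi-likelihood fit, genotype as the only term) in R 4.3.3. Standard errors were obtained by dividing the absolute log2 fold change by the root of its F statistic, and 95% intervals follow from them. The alternatives used DESeq2 1.42.0, and limma 3.58.1 on log2(FPKM + 0.1 or 1). The scripts were tested on simulated data. CPM values use unscaled library totals. Replicates of a genotype differed by chi-square values per degree of freedom of 3.28 to 21.94, so none was treated as a repeat.

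Deviations from the genotype mean correlated by 0.342, 0.754 and 0.568 between libraries numbered 1, 2 and 3, all above 0.1, and libraries with the same number were therefore treated as pairs. The pairing comes from the data and not from the labels. For numbers 1 and 3 the criterion could not decide, since libraries of unlike number passed 0.1 as well. The value was 0.379 for the combination of wild type 1 and null 3. It was 0.238 for null 1 combined with wild type 3. Deviations within a genotype sum to 0, so with number 2 standing apart those of numbers 1 and 3 lean the same way. Which of these libraries belong together is therefore not known, and the block follows their numbers. Blocked fits are given where they change a call of a gene named in the text.

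The genes and lists were chosen with earlier results of these data known. Values in every library are given for genes called or with an unadjusted p under 0.05 in either fit, the 3 highest by FPKM of each role, and those that differ more than 2-fold between the number 2 and the other libraries with 20 or more counts. Pathway genes are named where called in either fit. Promoter sequences are from RefSeq (GRCm38.p6). Coordinates are those of the deposited table.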

Additional observations from a re-analysis of the deposited data

How the results depend on the processing

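The number of FGF genes called was 0 in edgeR without the block, 1 with the replicate block, 1 by DESeq2 with the block, and with the block 2 without pair 1 and 0 without pair 2 or pair 3. It was 0 in every other setting run, leaving out single libraries included. The pathway lists gave 0 calls, against 3 with the replicate block, 2 by DESeq2 with it, and 7, 1 and 2 with the block and without pair 1, 2 and 3. The 7 were Dusp4, Gpc4, Sos2, Flrt3, Sulf2, Gpc1 and Map2k2. In the block fit on all 6 libraries, the log2 fold changes of Flrt3 and Sulf2 were 0.185 and 0.233. Those of Gpc1 and Map2k2 were -0.144 and -0.225. Over all genes 22 were called, against 597 with the replicate block, 84 and 163 by DESeq2 without and with it, 65 with no filter on low counts, 38 and 36 by limma on log2(FPKM + 0.1) and log2(FPKM + 1), and 89 without the number 2 libraries and without the block, a setting chosen after seeing the data. With the block and without pair 1, 2 and 3 it was 1193, 126 and 219, and with 1 library left out, unblocked, 2 to 34. Leaving out a library leaves fewer samples to the fit; beyond that the cause was not tested.

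The block changed no call of an FGF or pathway gene other than Fgf13, Dusp4, Gpc4 and Sos2. Of the 23 tested genes, 10 kept their sign in every alternative setting that gave them a value and 13 did not (17 settings, of which the block without pair 1 gave none for Fgf20 and Etv4 and the block without pair 3 none for Fgf9), and none of the sign changes came with a call. With 1 library left out and no block, the log2 fold change of Etv5 ran from -0.155 to 0.161, Fgf12 from -0.354 to 0.436, Fgf14 from -0.469 to 0.372, Fgf15 from -0.422 to 0.618, Fgf7 from -0.41 to 0.444, Fgf9 from -1.152 to 0.531, Fgfr1 from -0.084 to 0.037, Fgfr2 from -0.149 to 0.238, Fgfr3 from -0.218 to 0.121, Fgfrl1 from -0.203 to 0.115, Spry1 from -0.121 to 0.237 and Spry4 from -0.262 to 0.002. With the replicate block the sign also changed for Fgf12 (-0.086) and Fgf9 (-0.009), and by DESeq2 with the block for Fgf12 (-0.12), Fgf7 (0.049) and Fgf9 (-0.092). With the block and without pair 1 it changed for Fgf12 (-0.474) and Spry1 (-0.032), without pair 2 for Fgfr2 (-0.068, and -0.068 unblocked) and Fgf9 (-0.009), and without pair 3 for Etv5 (-0.042), Fgf12 (-0.427), Fgf15 (-0.299), Fgf2 (-0.012), Fgf7 (0.371), Fgfr3 (0.015), Fgfrl1 (0.019) and Spry1 (-0.191). By limma it changed for Fgf12 (-0.167 and -0.04), Fgf9 (-0.084 and -0.012) and Fgf7 (0.028). The cause was not tested. Fgf20 and Etv4 stayed under 20 counts in every library, which limits their precision.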
